A study of Mus musculus with 15 samples.

Results

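The numbered zinc finger protein genes are the mouse genes whose symbols begin with Zfp, Zkscan or Zscan followed by a number. The probe annotation of the array named 294 of them, leaving out Zfp36, which encodes an RNA-binding protein of another finger type. A gene was kept when one of its probes was detected (p under 0.05) on each of the 3 arrays in some group, and the brightest such probe stood for the gene. This left 117 of the 294 genes (39.8%), among 6838 genes tested in all, and the same filter kept 41.2% of all 16593 symbols on the array. The 117 comprised 109 Zfp, 5 Zkscan and 3 Zscan genes, and all of them were found in the RefSeq gene table under the same symbol. Of the 177 genes not kept, 91 were detected on no array, 51 on at most 1 array of their best group and 35 on at most 2. On the other side of the filter, 44 of the 117 (37.6%) were detected on all 15 arrays, against 58.4% of all genes tested. The 117 were dimmer, with a median level of 5.72 against 6.54 for all genes tested. Comparisons with all genes below are not matched for level. A further 21 passed through a single group. These were 3 through KO iNKT, 1 through WT iNKT stage 3, 11 through KO T and 6 through WT T cells. A gene kept through the one group in which it was high had to differ between groups, so counts over the 117 genes are descriptions of the detected genes.

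The study compared invariant natural killer T (iNKT) cells and other T cells sorted from the thymi of 4-week-old mice that lacked or kept Dicer in the T lineage. KO mice carried 2 floxed Dicer alleles and a CD4-Cre transgene (Dicer lox/lox CD4-Cre +/-), and WT mice carried the same floxed alleles without Cre (Dicer lox/lox CD4-Cre -/-), so the floxed alleles were shared by all groups. CD4-Cre acts from the double-positive thymocyte stage in all cells that descend from it. There were 5 groups. The KO iNKT sort was not divided by stage, whereas WT iNKT cells were sorted as stage 3 (NK1.1 +, CD44 high) and stage 1-2 (NK1.1 -, CD44 high/low), and the others were KO T cells and WT T cells. All sorts took cells low in HSA, and iNKT cells were TCRβ int and positive for the CD1d tetramer, while T cells were TCRβ + and negative for it. Each group had 3 arrays, and the labels do not say whether these came from different animals, so p-values measure the spread between arrays, which may be technical. Levels are log2 intensities of single-colour Illumina bead arrays after background correction and quantile normalization. Differences are given on that log2 scale, first-named group minus second, with the standard error (SE) of the limma model, and genes were called at an adjusted p under 0.05 over all 6838 genes.

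C2H2 zinc finger proteins form the largest family of transcription factors in mammals. Each finger is a short fold held by a zinc ion that reads a few bases of DNA, and rows of fingers read longer sites. Many of these genes also encode a KRAB domain, which recruits the corepressor Trim28 and histone methylation to silence transposable elements and genes, or a SCAN domain, through which the proteins pair. Dicer cuts precursor RNAs into mature microRNAs, which lower the level and translation of messenger RNAs that pair with their seed. The miR-181 family is abundant in double-positive thymocytes and is needed for iNKT cell development in mice. Coding regions of many C2H2 genes hold repeated miR-181 sites, because the finger-encoding repeats share sequence. The design therefore allowed one to ask whether zinc finger genes were jointly higher in KO iNKT and KO T cells. MicroRNA levels and coding sites were not measured here.

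The mature mouse miR-181 sequences of RefSeq (GRCm38.p6) are shown because this family raised the question. Capitals mark the seed, bases 2 to 8, which was identical in all 4.
mmu-miR-181a-5p: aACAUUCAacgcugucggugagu
mmu-miR-181b-5p: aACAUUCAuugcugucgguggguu
mmu-miR-181c-5p: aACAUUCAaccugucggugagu
mmu-miR-181d-5p: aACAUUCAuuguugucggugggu

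Between 5037 and 6500 of the 6838 genes were detected on an array, and replicate arrays correlated at Pearson's r of 0.942 to 0.986 across genes. The labels were checked with marker genes. All 7 iNKT markers tested were higher in WT iNKT than in WT T cells, and 4 of 5 conventional T markers were lower. The Dicer1 probe read 6.31, 6.21 and 6.48 in KO iNKT cells, 7.31, 6.62 and 7.60 in WT stage 3, 5.94, 6.60 and 6.21 in WT stage 1-2, 6.12, 6.44 and 6.60 in KO T cells, and 6.43, 6.59 and 6.30 in WT T cells. KO and WT T cells overlapped at this probe, as did KO iNKT and WT stage 1-2 cells, while KO iNKT cells were lower than WT stage 3 (-0.84 ± 0.25, limma adjusted p = 0.0167). The position of this probe relative to the floxed exons is not known here, so it does not check the genotype labels. Markers of other cells were present in the iNKT sorts. The mean level of 11 myeloid and granulocyte markers spanned 10.16 to 11.95 over KO iNKT arrays, 5.79 to 7.31 over WT stage 3 arrays and 9.621 to 10.04 over WT stage 1-2 arrays, with none of the 11 undetected throughout any of these groups. It spanned 4.47 to 4.51 in KO T cells and 4.47 to 4.54 in WT T cells, where 9 and 10 of the 11 were detected on no array. The mean of 5 double-positive thymocyte markers spanned 6.92 to 7.57 in KO iNKT cells, 5.12 to 5.62 in WT stage 3 and 6.01 to 6.98 in WT stage 1-2. In KO T cells it spanned 6.43 to 6.62 and in WT T cells 6.28 to 6.29. These T cell levels lay above WT stage 3, within the range of WT stage 1-2 and below KO iNKT cells. The mean of 4 B cell markers spanned 9.16 to 10.68 in KO iNKT and 8.73 to 10.26 in WT stage 1-2 cells. It spanned 5.78 to 6.67 in WT stage 3, 4.60 to 4.89 in KO T and 5.02 to 5.12 in WT T cells. The mean of 7 iNKT markers spanned 6.55 to 6.89 in KO iNKT and 7.08 to 7.44 in WT stage 1-2 cells. In WT stage 3 it spanned 8.31 to 8.38, in KO T cells 5.26 to 5.50 and in WT T cells 5.79 to 5.93.

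As a group, the 117 zinc finger genes were brightest in T cells. Their mean level spanned 5.65 to 5.92 over KO iNKT arrays, 5.89 to 5.97 over WT stage 3 arrays, 5.68 to 5.74 over WT stage 1-2 arrays, 6.16 to 6.21 over KO T arrays and 6.13 to 6.17 over WT T arrays. KO and WT T cells overlapped, and every T array lay above every iNKT array. Of the 21 genes kept through a single group, 11 entered through KO T and 6 through WT T cells. Others, such as Zfp60, Zfp94 and Zfp763, were kept through both T cell groups and no iNKT group. Both kinds of gene can raise the T cell levels of the set. The number of the 117 genes detected spanned 86 to 99 in KO iNKT cells, 67 to 89 in WT stage 3, 65 to 101 in WT stage 1-2, 108 to 113 in KO T cells and 97 to 114 in WT T cells. In bulk samples, fewer cells that express a gene and less of its RNA per cell cannot be told apart.

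**Figure D1:**
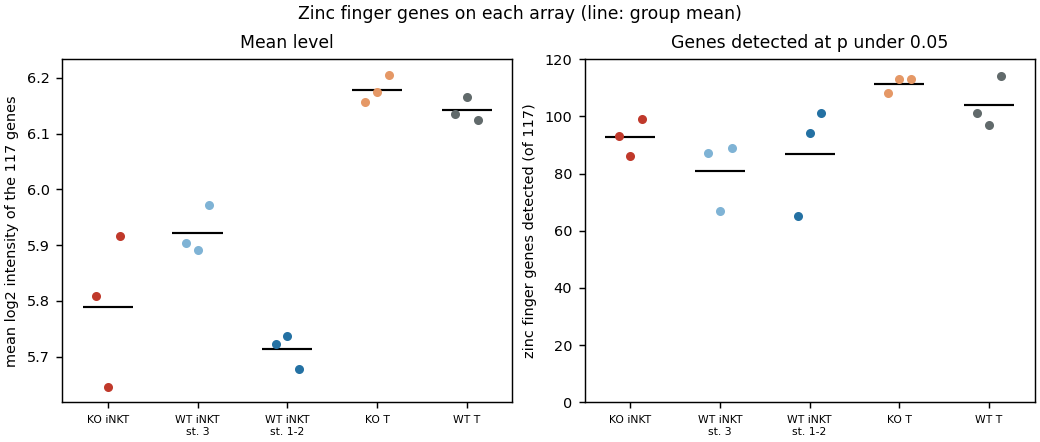
Mean log2 intensity of the 117 zinc finger genes (left) and the number of them detected (right) on each of the 15 arrays, by group. Points are arrays and lines are group means; the 6 T cell arrays lie between 6.13 and 6.21, above all 9 iNKT arrays.

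The first comparison asked whether loss of Dicer in iNKT cells changed these genes relative to WT iNKT stage 1-2. Of the 117 genes, 2 rose (1.71%) and none fell, while 1.96% of all genes tested rose and 1.05% fell (3.01% in all). The 2 were Zfp608, which the filter kept through KO iNKT cells alone, and Zfp644. The median log2 difference was 0.01 for the zinc finger genes and -0.01 for all genes. At an unadjusted p under 0.05, 16 were higher (13.7%) and 4 lower (3.42%), against 10.6% and 8.12% of all genes. The groups did not overlap for 14 genes that were higher and 5 that were lower in KO iNKT cells, against 10% of all genes in each direction.

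Zfp608 encodes a zinc finger protein known in mouse thymocytes as a repressor of the Rag genes. Its level was 6.64, 6.21 and 6.91 in KO iNKT cells, 4.45, 4.27 and 4.41 in WT stage 3, 4.64, 4.84 and 5.59 in WT stage 1-2, 5.09, 4.74 and 5.13 in KO T cells, and 4.66, 4.49 and 4.82 in WT T cells. All 3 KO iNKT arrays lay above every other array of the series, and the gene was kept through this group alone. The tests of its rise in KO iNKT cells therefore describe a gene selected on that side. The difference from WT stage 1-2 was 1.57 ± 0.25 (SE, n = 3 arrays a group, limma adjusted p = 0.00223). No WT stage 3 array detected the gene, so against stage 3 the level was at least 2.91-fold higher (limma adjusted p = 4.45e-06). In T cells the KO and WT arrays overlapped, with a difference of 0.33 ± 0.25 (limma adjusted p = 0.706). The iNKT difference exceeded the T cell difference by 1.24 ± 0.35, which did not pass the test of the difference itself (limma adjusted p = 0.215).

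Rag1, a gene that Zfp608 is known to repress, averaged 5.40 in KO iNKT and 4.60 in WT stage 1-2 cells, a difference of 0.79 that was not called (limma adjusted p = 0.142). Zfp609, a paralogue of Zfp608 that counters its effect on Rag genes in mouse thymocytes, read 4.58, 4.99 and 4.74 in KO T cells and 5.35, 5.77 and 5.35 in WT T cells. These T cell groups did not overlap, but the difference of -0.72 ± 0.21 was not called (limma adjusted p = 0.251). Zfp609 was kept through WT T cells alone, the group in which it was highest, so the lack of overlap is a description only. In iNKT cells Zfp609 read 4.67, 5.12 and 4.90 in KO arrays and 5.28, 4.80 and 5.13 in WT stage 1-2 arrays, which overlapped.

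Zfp644 encodes a partner of the histone H3 lysine methyltransferases G9a and GLP. It read 5.92, 5.73 and 6.07 in KO iNKT cells, 5.03, 4.89 and 5.04 in WT stage 3, 5.16, 5.14 and 4.90 in WT stage 1-2, 6.46, 6.64 and 6.95 in KO T cells, and 6.13, 5.83 and 5.94 in WT T cells. Every KO array lay above every WT array of the same cell type. The difference was 0.84 ± 0.19 against WT stage 1-2 (limma adjusted p = 0.0228) and 0.92 ± 0.19 against WT stage 3 (limma adjusted p = 0.00157). In T cells it was 0.72 ± 0.19 and did not pass (limma adjusted p = 0.199). The difference of the iNKT and T cell effects was 0.13 ± 0.27 (limma adjusted p = 0.934).

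Beside these iNKT results, 3 of 11 myeloid, 0 of 4 B cell and 1 of 5 double-positive thymocyte markers rose in KO iNKT cells against WT stage 1-2, while 3 of 7 iNKT markers fell and 1 rose, and their part in the result was not tested. Under scaling of each array to a common median, over all probes or the tested genes, or with the compared groups fitted alone, neither Zfp608 nor Zfp644 passed against WT stage 1-2. The Zfp644 call against this group was also lost in the authors' normalized values, without background correction and with a trended and robust eBayes. It was lost too without KO iNKT replicate 1 (limma adjusted p = 0.0863) or WT stage 1-2 replicate 2 (0.0586) or 3 (0.0529).

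In T cells no zinc finger gene passed, in either direction, where 0.117% of all genes rose and 0.0292% fell (0.146% in all, limma). At an unadjusted p under 0.05, 3 were higher in KO T cells (Zfp644, Zfp810 and Zfp119a) and 2 were lower (Zfp609 and Zfp60), against 5.02% and 4.45% of all genes. The groups did not overlap for 12 that were higher and 4 that were lower, against 11.2% and 9.97%. Zfp810 read 4.97, 5.57 and 5.43 in KO T cells and 4.69, 4.45 and 4.71 in WT T cells, none of which detected it, and it was kept through KO T cells alone. The groups did not overlap, and the level was at least 1.29-fold higher in KO T cells without passing the test (limma adjusted p = 0.256). Zfp60 read 5.48, 5.57 and 5.10 in KO T cells and 6.05, 6.27 and 5.53 in WT T cells, groups that overlapped (-0.57 ± 0.21, limma adjusted p = 0.415). Zfp513 read 6.39, 6.35 and 5.94 in KO T cells and 7.05, 6.86 and 6.52 in WT T cells, without overlap and not called. The median difference was 0.04 for the zinc finger genes and 0.00 for all genes, and 71 of the 117 (60.7%) had a positive difference, against 50.1% of all genes. With array quality weights 3 genes passed in T cells, Zfp119a, Zfp644 and Zfp810. The filter kept Zfp119a and Zfp810 through KO groups alone, so their passes describe genes selected on the KO side.

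**Figure D2:**
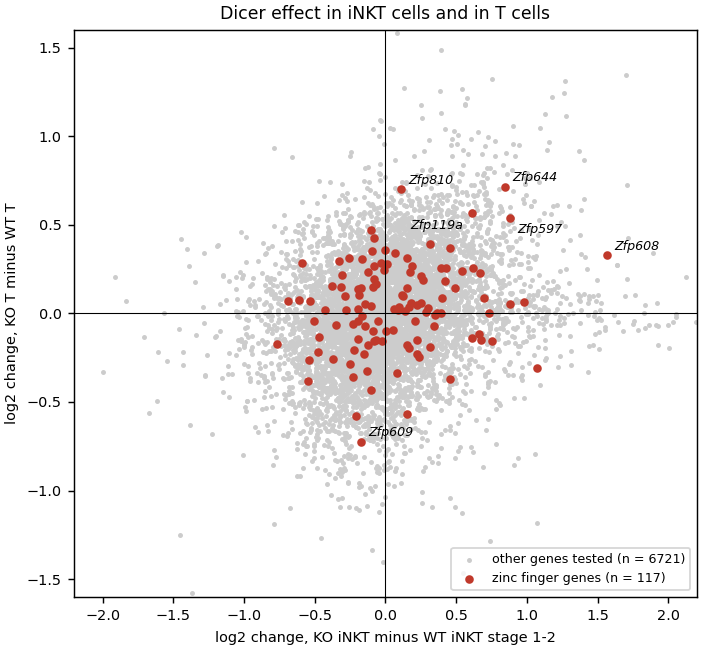
Log2 difference between KO and WT T cells (vertical axis) against that between KO iNKT and WT iNKT stage 1-2 cells (horizontal axis) for 117 zinc finger genes (red) and the 6721 other genes tested (grey). All 117 lie within the axes and 7 other genes lie outside; Zfp644, Zfp119a and Zfp597 are high on both axes and Zfp608 on the horizontal one.

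A joint rise was tested as the mean of the iNKT difference (against WT stage 1-2) and the T cell difference. A large difference in a single cell type can carry this mean, so a gene called here need not have risen in both. Of the 117 genes, 3 rose jointly (2.56%) and none fell, against 2.12% and 0.804% of all genes (2.92% in all). At an unadjusted p under 0.05, 12 were higher and 3 lower, against 11% and 8.38% of all genes. Those that rose were Zfp608, Zfp644 and Zfp119a. Of these, Zfp608 and Zfp119a passed the detection filter through KO groups alone, so their joint calls describe genes selected on the KO side. The joint median was 0.05 for the zinc finger genes and -0.01 for all genes, a gap that was not tested. The median level of these genes varied by 0.124 between single replicate arrays (pooled SD), which is not the error of this gap. Zfp608 passed with a mean of 0.95 ± 0.17 (limma adjusted p = 0.00802), of which the T cell part was not called. Zfp644 had a mean of 0.78 ± 0.14 (limma adjusted p = 0.00543).

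Zfp119a is a KRAB zinc finger gene. Its level was 4.91, 5.07 and 5.21 in KO iNKT cells, 4.84, 4.42 and 4.61 in WT stage 3, 4.38, 4.41 and 4.57 in WT stage 1-2, 5.39, 5.13 and 5.17 in KO T cells, and 4.53, 4.77 and 4.68 in WT T cells. All 6 KO arrays detected it and none of the 9 WT arrays did, so the filter kept it through the KO groups alone. Against the detection limit it was at least 1.10-fold higher in KO iNKT than in WT stage 1-2 cells and at least 1.21-fold higher in KO T than in WT T cells. The joint mean of the measured values was 0.59 ± 0.13 (limma adjusted p = 0.0224), while neither comparison alone passed (limma adjusted p = 0.0818 and 0.336). The joint call of Zfp119a was lost without WT stage 1-2 replicate 2 and without WT T replicate 1 or 3, where the adjusted p reached 0.0720. It was also lost in the authors' normalized table (limma adjusted p = 0.0670), without background correction (0.0635) and under median scaling over the tested genes (0.319) or over all probes (0.999).

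Zfp597 was the other zinc finger gene whose KO arrays lay above the WT arrays in both comparisons, and it was singled out for this after its values were seen. It read 6.05, 5.93 and 6.07 in KO iNKT cells, 4.66, 5.62 and 5.14 in WT stage 1-2, 7.65, 7.67 and 7.50 in KO T cells, and 7.14, 7.10 and 6.97 in WT T cells. Its joint mean was 0.71 ± 0.22 and was not called (limma adjusted p = 0.0884). In all, 3 of the 117 (Zfp644, Zfp119a and Zfp597) were higher in both comparisons without overlap (2.56%), against 2.91% of all genes, and 0 were lower without overlap, against 1.74%.

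**Figure D3:**
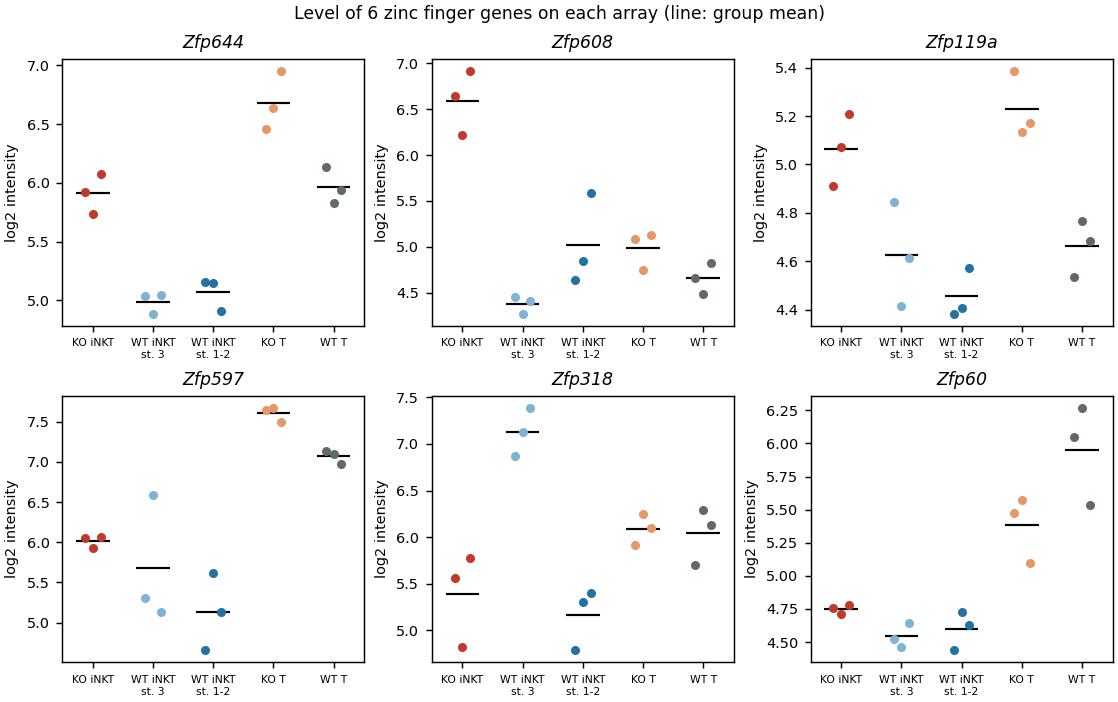
Log2 intensity of 6 zinc finger genes on each array, by group; points are arrays and lines are group means, and the vertical scales differ. KO arrays lie above WT arrays of the same cell type for Zfp644 and Zfp119a, Zfp608 is high in KO iNKT cells, Zfp318 in WT iNKT stage 3 and Zfp60 in T cells.

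Genes with the same sign in both comparisons were counted beside all genes. A positive difference in both comparisons, of any size, was found for 41 zinc finger genes (35% of them against 29.5% of all genes), and a negative one in both for 27 (23.1% against 30.4%). An unadjusted p under 0.05 with a higher level in both was found for Zfp644 and Zfp119a (1.71% against 1.78%), and for no gene in the lower direction (0.643% of all genes). An adjusted p under 0.05 in both was met by no zinc finger gene and by 0.0146% of all genes. Agreement between the comparisons, given as a description across genes, was Pearson's r = 0.214 and Spearman's rho = 0.181 for the 117 genes, against 0.262 and 0.280 for all 6838. The genes share arrays and normalization and are not independent replicates. No zinc finger gene passed the test of the difference between the iNKT and T cell effects (limma, smallest adjusted p = 0.215), which 0.132% of all genes passed upward and 0.0439% downward (0.175% in all). At an unadjusted p under 0.05, 4 were higher and 1 lower, against 4.65% and 3.98% of all genes. None moved without overlap in opposite directions in the 2 cell types, against 0.366% of all genes up in iNKT and down in T cells and 0.278% the other way. The 4 were Zfp710 (1.38 ± 0.63), Zfp608, Zfp871 (0.90 ± 0.33) and Zfp60 (0.72 ± 0.30), and the lower one was Zfp62 (-0.87 ± 0.36).

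**Figure D4:**
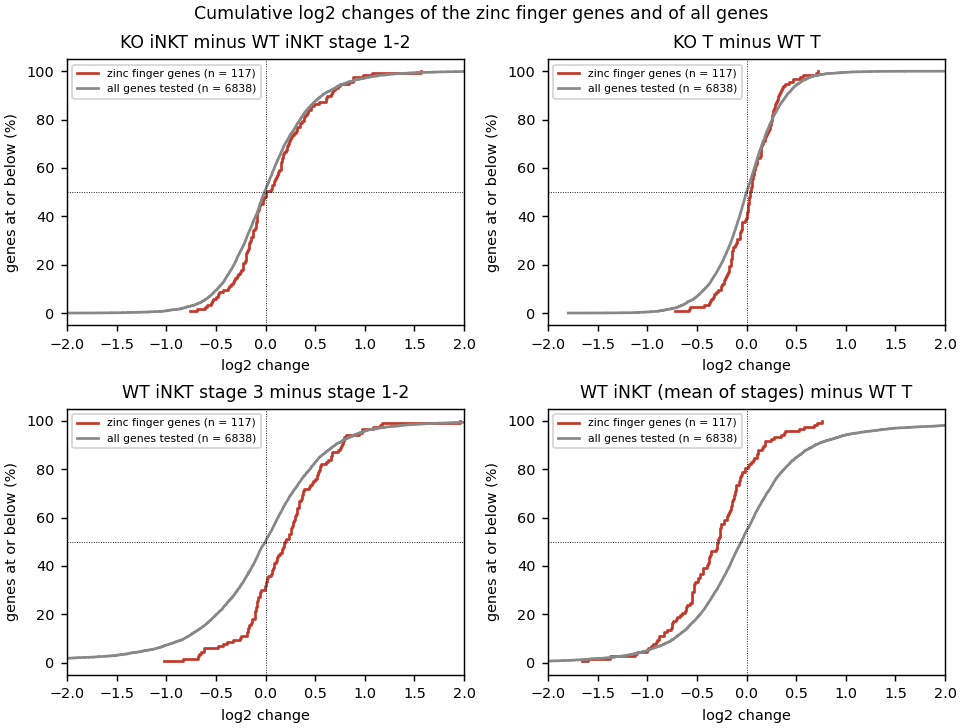
Cumulative share of genes (vertical axes, percent) at or below each log2 difference (horizontal axes) for the 117 zinc finger genes (red) and all 6838 genes tested (grey) in 4 comparisons. The medians of the zinc finger genes are 0.01 (iNKT) and 0.04 (T cells) in the Dicer comparisons, and 0.19 (stage 3 against stage 1-2) and -0.29 (WT iNKT against WT T) in the WT comparisons.

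The promoters of Zfp644 and Zfp119a are shown because these genes were higher in both KO groups, and that of Zfp318 because it changed most between WT iNKT stages. The windows run from 250 bases before to 50 after the gene start on the gene's strand (RefSeq, GRCm38.p6). Capitals mark GGGCGG (Sp family) or CCAAT, searched on both strands with CCGGAAG (ETS family) and TATAAA.
Zfp644, chr5:106696781-106697080, minus strand: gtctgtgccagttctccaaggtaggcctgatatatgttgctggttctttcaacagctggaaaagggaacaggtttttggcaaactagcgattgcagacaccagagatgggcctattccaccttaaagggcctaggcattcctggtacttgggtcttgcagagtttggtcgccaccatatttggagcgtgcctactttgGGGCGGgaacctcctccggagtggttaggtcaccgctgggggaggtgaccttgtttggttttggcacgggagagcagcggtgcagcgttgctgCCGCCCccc
Zfp119a, chr17:55878904-55879203, minus strand: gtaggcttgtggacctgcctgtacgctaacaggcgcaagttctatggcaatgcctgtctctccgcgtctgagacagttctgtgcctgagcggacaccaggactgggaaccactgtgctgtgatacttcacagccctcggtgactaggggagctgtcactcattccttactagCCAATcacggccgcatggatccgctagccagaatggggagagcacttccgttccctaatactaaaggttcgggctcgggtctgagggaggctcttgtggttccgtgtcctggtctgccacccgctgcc
Zfp318, chr17:46383516-46383815, plus strand: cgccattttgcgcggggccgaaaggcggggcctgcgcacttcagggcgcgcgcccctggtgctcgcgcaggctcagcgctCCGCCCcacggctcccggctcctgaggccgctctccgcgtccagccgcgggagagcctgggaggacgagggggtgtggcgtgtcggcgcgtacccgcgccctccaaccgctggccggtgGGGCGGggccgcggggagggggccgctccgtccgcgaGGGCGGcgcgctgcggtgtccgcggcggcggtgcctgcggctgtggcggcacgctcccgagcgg

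These windows differed in CpG content, with 10 CpG sites for Zfp644, 14 for Zfp119a and 49 for Zfp318. Windows were found for 98 of the 117 zinc finger genes, with a median of 17 CpG sites, against 21 for 5652 genes tested and 7 for all 27025 windows. GGGCGG or its complement was in 49 of the 98 zinc finger promoters, against 64.6% of promoters of genes tested and 35.9% of all windows, and CCAAT in 48.0%, against 39.6% and 37.9%. CCGGAAG was in 17.3%, 20.2% and 9.12% of these sets and TATAAA in 4.08%, 7.73% and 14.2%. A match describes letters only.

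Against WT iNKT stage 3, the KO iNKT sort had 3 zinc finger genes that rose (2.56%) and 9 that fell (7.69%), while 16% of all genes rose and 14% fell (29.9% in all). An unadjusted p under 0.05 was met by 9 that were higher and 17 that were lower, against 21% and 19.3% of all genes. The groups did not overlap for 11 that were higher and 16 that were lower, against 20.7% and 18.4%. The median difference was -0.18 for the zinc finger genes and -0.01 for all genes. Zfp608 and Zfp644 rose, as given above, and were the 2 genes called above both WT stages (1.71%, against 1.65% of all genes), in comparisons that share the KO iNKT arrays. For Zfp608, kept through KO iNKT cells alone, this is a description only. Zfp637 also rose (0.77 ± 0.27, limma adjusted p = 0.0374), a call that passed in 3 of 11 other settings, leaving out single arrays aside. KO iNKT cells were not sorted by stage, so the genotype and the stage composition cannot be told apart in this comparison. Markers of other cells moved strongly here: 10 of 11 myeloid, 4 of 4 B cell and 4 of 5 double-positive thymocyte markers rose and 5 of 7 iNKT markers fell, and their part in the result was not tested.

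Zfp318, which in mouse B cells is required for IgD expression through read-through of the heavy chain locus, fell most. It read 5.56, 4.82 and 5.78 in KO iNKT cells and 6.87, 7.12 and 7.39 in WT stage 3, without overlap. The difference was -1.74 ± 0.26 (limma adjusted p = 9.66e-05). Zfp335, needed for the maturation and export of naive T cells in mice, read 4.92, 4.79 and 4.83 in KO iNKT cells and 5.50, 6.27 and 5.54 in WT stage 3 (-0.92 ± 0.25, limma adjusted p = 0.0105). Zfp292, whose human counterpart is mutated in chronic lymphocytic leukaemia, read 7.48, 6.96 and 7.47 in KO iNKT cells and 8.11, 8.24 and 8.50 in WT stage 3 (-0.98 ± 0.24, limma adjusted p = 0.00606). For these 3 genes every KO array lay below every stage 3 array.

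Zfp410, a direct activator of the chromatin remodeller gene Chd4 in erythroid cells, fell by 0.90 on the log2 scale (limma adjusted p = 0.0148), but its 2 other kept probes gave differences of 0.08 and -0.35. Zfp672 (-0.97 ± 0.19), the SCAN domain gene Zscan26 (-0.93 ± 0.21), Zfp954 (-0.83 ± 0.22), Zfp574 (-0.82 ± 0.27) and Zfp317 (-0.74 ± 0.24) also fell, and only for Zfp317 among these 5 did the groups overlap. In scaling to a common median over all probes 1 gene passed in this comparison, Zfp608, and 6 passed when the median was taken over the tested genes. The calls of Zfp335 (limma adjusted p = 0.0583) and Zfp954 (0.0510) were lost without stage 3 replicate 2. That of Zfp410 was lost without stage 3 replicate 2 or 3 or KO iNKT replicate 2 (up to 0.0571), that of Zfp637 without stage 3 replicate 1 or 2 or KO iNKT replicate 2 (up to 0.172), and that of Zfp574 without stage 3 replicate 1 or 2 or KO iNKT replicate 1 or 3 (up to 0.128).

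Between the WT iNKT stages, zinc finger genes were more often higher in stage 3. In stage 3 against stage 1-2, 13 rose (11.1%) and 3 fell (2.56%), while 9.11% of all genes rose and 11% fell (20.1% in all). At an unadjusted p under 0.05, 21 were higher and 7 lower, against 15.6% and 17.7% of all genes, and the stages did not overlap for 23 and 7, against 15.3% and 17.3%. The median difference was 0.19 for the zinc finger genes and 0.00 for all genes, and 68.4% of the zinc finger genes had a positive difference, against 49.9% of all genes. The gap between both medians was positive under every alternative tried, at 0.0459 to 0.267. The smallest gap came without the detection filter, a setting that takes in undetected genes. Higher levels in stage 3 were not particular to the numbered genes. The median difference was 0.20 for 16 ZBTB genes and 0.23 for 22 other named C2H2 factors, 2 sets described below. Zfp318 rose most, with 6.87, 7.12 and 7.39 in stage 3 and 4.79, 5.30 and 5.40 in stage 1-2, without overlap (1.96 ± 0.26, limma adjusted p = 5.29e-05). This comparison shares the stage 3 arrays with the one above, so the opposite signs of Zfp318, Zfp335, Zfp410, Zfp672 and Zscan26 in them rest on the same arrays.

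Zfp654 rose by 1.15 ± 0.28, with 6.71, 7.06 and 7.27 in stage 3 and 6.56, 5.82 and 5.22 in stage 1-2. Zfp868 rose by 1.08 ± 0.28. It was kept through the stage 3 group alone, and 2 of the 3 stage 1-2 arrays did not detect it. Zfp871 read 7.31, 7.88 and 7.59 in stage 3 and 7.005, 6.34 and 6.52 in stage 1-2 (0.97 ± 0.23, limma adjusted p = 0.00721). Zfp410 (0.97 ± 0.26), Zfp715 (0.94 ± 0.26) and Zscan26 (0.79 ± 0.21) rose too, again without overlap, and the 2 other kept probes of Zfp410 gave 0.39 and 0.33. Zfp87 rose by 1.17 ± 0.33, but its other kept probe gave 0.04, and its stage 3 values of 5.64, 7.13 and 5.76 rested largely on replicate 2.

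Zfp46, Zfp282 and Zfp330 fell in stage 3. Zfp46 read 5.34, 4.69 and 5.58 in stage 3 and 6.67, 6.09 and 5.92 in stage 1-2 (-1.02 ± 0.29, limma adjusted p = 0.0182), a call that passed in 3 of 11 other settings. Zfp282 read 6.85, 6.82 and 6.56 in stage 3 and 7.65, 7.42 and 7.66 in stage 1-2 (-0.83 ± 0.21, limma adjusted p = 0.00947), and Zfp330 had a difference of -0.68 ± 0.22, against -0.19 for its other kept probe. Within the stages, 10 of 11 myeloid, 4 of 4 B cell and 2 of 5 double-positive markers fell in stage 3, and their part in the result was not tested. The count of 16 called genes dropped to 8 without the array of each stage with the fewest detected genes (stage 3 replicate 2 and stage 1-2 replicate 1), to 9 without stage 3 replicate 2 alone, to 4 with the compared groups fitted alone and to 0 under median scaling over all probes. Without stage 1-2 replicate 1, the calls of Zfp46, Zfp335, Zfp410, Zfp330, Zfp715 and Zfp87 were lost (limma adjusted p up to 0.137), and without stage 3 replicate 2 those of Zfp46, Zfp335, Zfp410, Zfp330 and Zfp87 (up to 0.187). Without stage 1-2 replicate 3, Zfp654, Zfp715 and Zscan26 no longer passed (up to 0.0730), without stage 3 replicate 3 Zfp410 and Zfp715 (up to 0.0721), without stage 1-2 replicate 2 Zfp335 and Zfp330 (up to 0.140), and without stage 3 replicate 1 Zfp330 (0.149).

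The comparison between the lineages in WT mice had the most called zinc finger genes, 29 of 117, with 23.6% of all genes called there. Standard errors differ between comparisons, so these counts do not rank them. In WT iNKT cells (mean of both stages) against WT T cells, 28 zinc finger genes fell (23.9%) and 1 rose (0.855%), while 12.5% of all genes fell and 11.1% rose (23.6% in all). An unadjusted p under 0.05 was met by 42 that were lower and 5 that were higher, against 19.4% and 16.3% of all genes. The median difference was -0.29 for the zinc finger genes and -0.05 for all genes. Of the 117 genes, 94 had a negative difference. The iNKT arrays lay below the T arrays without overlap for 19 genes and above for 3, against 11.5% and 8.88% of all genes. The gap between both medians was negative under every alternative tried, at -0.289 to -0.0619. The gap nearest to zero came without the detection filter. Among the 28, Zfp60, Zfp94, Zfp748, Zfp595, Zfp763, Zfp280b, Zkscan1, Zfp646, Zfp609, Zfp930 and Zfp1 passed that filter through T cell groups alone. Such genes entered the set because T cells detected them, which can raise the number of falls. The counts of this comparison are therefore a description of the detected genes.

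Zfp597 fell most. It read 5.31, 6.59 and 5.13 in stage 3, 4.66, 5.62 and 5.14 in stage 1-2, and 7.14, 7.10 and 6.97 in WT T cells, with a difference of -1.66 ± 0.27 (limma adjusted p = 0.000168). Zfp60 was detected on none of the 6 WT iNKT arrays, which read 4.44 to 4.73, and on all 3 WT T arrays, which read 6.05, 6.27 and 5.53. It was at least 1.95-fold lower in WT iNKT cells (limma adjusted p = 2.05e-05), and no KO iNKT array detected it either. The filter kept Zfp60 through the T cell groups alone, in which it was high, so its fold and p-value are a description only. Zfp710 read 6.44, 4.79 and 4.67 in stage 3, 4.41, 5.26 and 6.47 in stage 1-2, and 6.86, 7.15 and 6.79 in WT T cells (-1.59 ± 0.38, limma adjusted p = 0.00547). One array of each iNKT stage was thus close to the T cells for Zfp710 and the others were well below.

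Zkscan3, whose human counterpart represses autophagy and lysosome genes, read 5.08, 4.60 and 6.16 in stage 3, 4.89, 5.43 and 5.48 in stage 1-2, and 6.55, 6.26 and 5.99 in WT T cells (-0.996 ± 0.28, limma adjusted p = 0.0141). Stage 3 replicate 3 overlapped the T cells. Zfp46 (-1.13 ± 0.25), Zfp87 (-1.10 ± 0.28), Zfp39 (-1.002 ± 0.20), Zfp251 (-0.97 ± 0.22) and Zfp644 (-0.94 ± 0.17) fell as well. Zfp523, the mouse counterpart of human ZNF76, was the one gene that rose, with 8.07, 7.97 and 7.26 in stage 3, 7.61, 7.51 and 7.62 in stage 1-2, and 7.05, 6.75 and 6.95 in WT T cells (0.76 ± 0.20, limma adjusted p = 0.0106). Other kept probes gave 0.25 for Zfp523 and -0.38 for Zfp87.

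**Figure D5:**
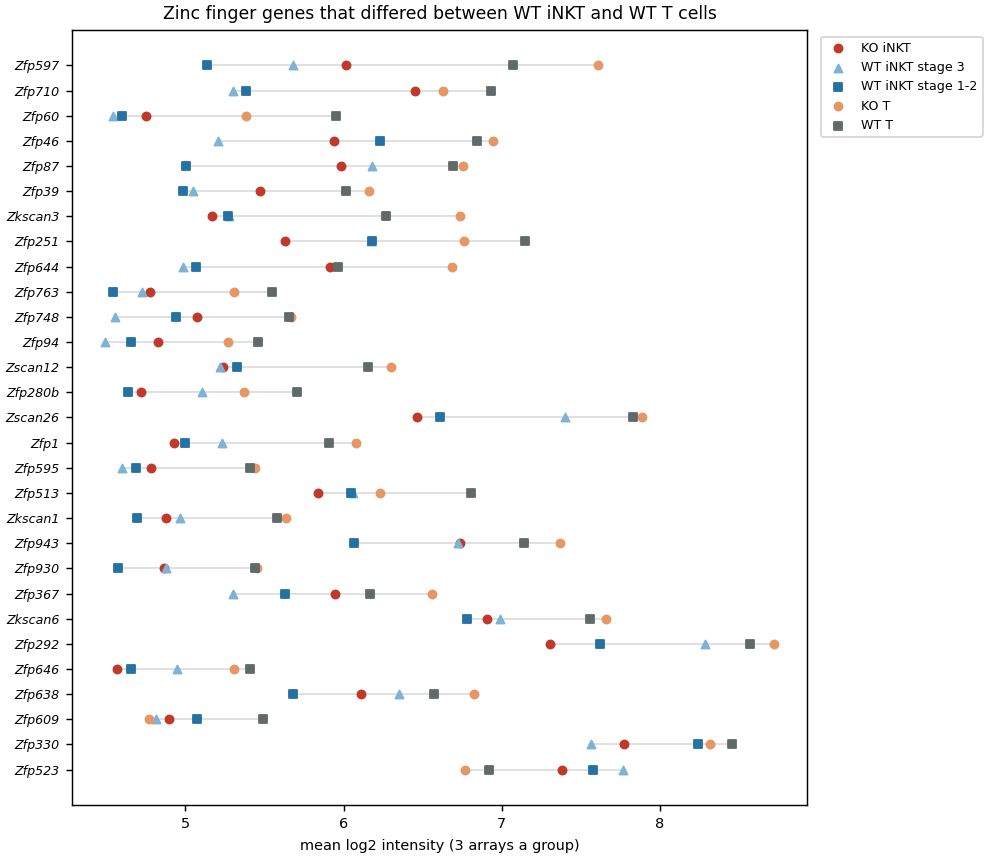
Mean log2 intensity (horizontal axis, 3 arrays a group) of the 29 zinc finger genes called between WT iNKT and WT T cells, 1 gene a row, with all 5 groups. The T cell means lie right of both WT iNKT means in the 28 upper rows, apart from Zfp609, whose KO T mean is low, and left of them for Zfp523; levels are compared within a row only.

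All 11 myeloid and 3 of 4 B cell markers were higher in WT iNKT than in WT T cells, and their part in the result was not tested. Under scaling to a common median over all probes 2 of the 29 genes remained called, Zfp597 and Zfp60, and 13 zinc finger genes were called when the median was taken over the tested genes. Leaving out WT T replicate 2 left 15 called genes, without Zkscan3 (limma adjusted p = 0.0501) and Zfp523 (0.0652), and leaving out WT T replicate 1 left 19, without Zkscan3 (0.0864) and Zfp87 (0.0639).

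Other genes with a known molecular role showed values as follows, listed whatever their result. Zfp91, a ubiquitin ligase for the kinase NIK, read 7.42, 6.82 and 7.06 in KO T cells and 6.61, 6.79 and 6.63 in WT T cells, without overlap and not called (0.42 ± 0.24, limma adjusted p = 0.611). Zfp326, a subunit of a complex that links transcript elongation to splicing in human cells, spread widely in KO iNKT cells (6.43, 5.23 and 7.56) and read 7.15, 7.07 and 7.08 in WT stage 1-2, so its difference of -0.69 ± 0.40 was not called. Zfp809, which silences retroviral DNA in mouse embryonic stem cells, was detected on no KO iNKT array, on 1 WT stage 3 array and on 2 WT stage 1-2 arrays. The lower level in KO iNKT cells was not called (limma adjusted p = 0.340 against WT stage 1-2). No Dicer comparison called Zfp148 and Zfp281, which bind GC-rich promoters, Zfp207, a spindle assembly factor, Zfp451, a SUMO ligase, or Zfp598, a ubiquitin ligase of collided ribosomes. Zfp106 and Zfp217 were not kept by the detection filter.

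Nearby genes were compared because zinc finger genes lie in clusters. By gene order in GRCm38.p6, 55 of the 117 (47.0%) had another numbered zinc finger gene as their next protein-coding neighbour, and 9 neighbour pairs, with 16 genes, were both among the 117. Zscan12 and Zkscan3 fell together in WT iNKT against WT T cells (-0.880 and -0.996), as did Zfp87 and Zfp748 (-1.10 and -0.90). In that comparison 94 of the 117 genes had a negative difference, so a shared fall was not particular to neighbours. Zfp87 and Zfp748 had opposite signs between stages (1.17, called, and -0.38, not called). The neighbours Zfp282 and Zfp212 had opposite signs between stages (-0.83, called, and 0.55, not called). Related fingers share sequence, and whether a probe also binds the transcript of a related gene was not tested. For 19 genes with more than 1 kept probe, 16 to 19 of 23 probe pairs had the same sign, depending on the comparison.

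Other C2H2 genes and partners of the KRAB domain gave a setting for these values. Of 22 other named C2H2 factors tested, 2 rose in KO iNKT against WT stage 1-2 cells, Klf2, a regulator of T cell export from the thymus (1.71 ± 0.27, limma adjusted p = 0.00272), and Ikzf5 (1.25 ± 0.31, limma adjusted p = 0.0342), and 0 changed in T cells. In WT iNKT against WT T cells 4 of the 22 rose and 11 fell, with a median of -0.64. In stage 3 against stage 1-2, 5 of the 22 rose and 1 fell, with a median of 0.23. Jointly 1 rose and none fell, with a median of 0.25. Of 16 ZBTB genes, whose proteins pair a BTB domain with fingers, none changed in KO iNKT against WT stage 1-2 cells or in T cells, Zbtb18 rose jointly (0.73 ± 0.19, limma adjusted p = 0.0452), and 4 fell in WT iNKT against WT T cells, with none rising and a median of -0.22. In stage 3 against stage 1-2, 2 of the 16 ZBTB genes rose and 1 fell, with a median of 0.20, and their joint median was 0.14. Of 13 corepressor partners of KRAB proteins, none changed in KO iNKT against WT stage 1-2 cells or in T cells. In WT iNKT against WT T cells 2 of the 13 rose, Trim28 (0.51 ± 0.16, limma adjusted p = 0.0262) and the DNA methyltransferase gene Dnmt3b, and 2 fell, Dnmt1 and Morc3, with a median of -0.14. In stage 3 against stage 1-2 Atf7ip rose and 3 fell, Trim28 (-0.64 ± 0.18, limma adjusted p = 0.0207), Dnmt1 and Uhrf1, with a median of -0.28.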

How the data were processed

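Thymic iNKT and T cells were profiled on 15 single-colour Illumina arrays. Per the file headers, the authors deposited non-normalized probe signals (linear intensity) together with a detection p-value per array, and a second table of normalized intensity, used as an alternative alone. The submitters' processing notes name GenomeStudio, and its version and the genome build are not given in the sources used here. Groups came from the sample titles, and 23978 of 25697 probes carried 1 gene symbol.

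Intensities were background corrected, quantile normalized and set on the log2 scale with neqc (limma 3.58.1, R 4.3.3, offset 16), filtered at detection p under 0.05, and reduced to the brightest kept probe per gene. A limma model of group means took in all 15 arrays, followed by contrasts, eBayes and Benjamini-Hochberg adjustment over 6838 genes, two-sided at 0.05. The fit was tested on simulated data. Where no array of the lower group detected a gene, the fold is a bound against that group's detection limit. Depth has no counterpart on arrays, and 3 arrays a group limit the precision.

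The genes named were the up to 8 largest changes each way among those called in a comparison, all called jointly, the 3 smallest p-values each way where none passed, and a list of genes with known roles. Members and lists were chosen with earlier results of these data known. Samples were treated as unpaired, because the labels do not say that a replicate number marks a shared animal or batch. Of 30 same-number pairs, 3 had a correlation of deviations over 0.1 (-0.233 to 0.481), which does not settle whether samples were paired. Alternatives changed the normalization, filter, model, weights, reference and arrays. Promoters and microRNAs came from RefSeq tables, and figures were drawn with matplotlib 3.10.9 in Python 3.11.15. Protein domains and microRNA sites in transcripts were not analysed here.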

Additional observations from a re-analysis of the deposited data

How the results depend on the processing

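No named call changed sign under any alternative. Scaling to a common median over all probes shifted the median of all genes to -0.43 (KO iNKT against WT stage 1-2), -0.19 (against stage 3), 0.16 (T cells), -0.13 (joint), -0.22 (stage 3 against 1-2), -0.19 (WT iNKT against WT T) and -0.61 (difference of effects). It left 0, 1, 0, 0, 0, 2 and 0 called genes in that order, against 2, 12, 0, 3, 16, 29 and 0. Scaling over the tested genes alone, chosen after seeing the data, left 0, 6, 0, 0, 7, 13 and 0. For KO iNKT against WT stage 1-2 the count was 1 in the authors' normalized table, with quantile normalization without background correction and with a trended, robust eBayes, 0 with the compared groups alone, 5 with array weights, 7 against the mean of both WT stages (3 rose and 4 fell) and 5 without the 2 arrays with the fewest detected probes, a choice also made after seeing the data. Array weights gave 3 in T cells, 8 jointly (7 rose and 1 fell), 9 between stages and 1 for the difference of effects, Zfp608. Between stages the count was 10 without a detection filter, 4 with the compared groups alone and 8 without those 2 arrays. Leaving out 1 array at a time gave 1 to 3, 9 to 19, 0 to 0, 2 to 3, 9 to 16, 15 to 32 and 0 to 1. The highest count against stage 3 came without KO iNKT replicate 3, and the call of Zfp608 in the difference of effects without WT stage 1-2 replicate 3. With the replicate number as a block, which pairs no animals the labels name, the counts were 2, 12, 0, 3, 15, 26 and 0. The median of the zinc finger genes minus that of all genes kept its sign in every alternative except KO iNKT against WT stage 1-2 (-0.0748 to 0.164) and the difference of effects (-0.0215 to 0.0912). It was -0.214 to -0.0174 against stage 3, 0.0109 to 0.0715 in T cells and 0.0138 to 0.114 jointly. These gaps were not tested, and the 0.124 between replicate arrays is a spread of single-array levels that does not measure their error. Signals near background limit genes that some groups did not detect.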
